A study of Rattus norvegicus with 16 samples.

Results

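The genes described here encode proteins that ERK signalling switches on and that in turn restrain it, together with a group of transcription factors used as readouts of the same signal. They were the MAPK phosphatases Dusp1, Dusp4, Dusp5 and Dusp6, the Sprouty proteins Spry1, Spry2 and Spry4, and the ETS factors Etv1, Etv4 and Etv5. Every probe set whose only symbol in the platform annotation was 1 of these 10 genes was taken, which gave 19 of the 31042 probe sets tested. Etv1 had 5 of them, Dusp6 had 3, Dusp1, Etv4 and Etv5 had 2 each, and the other 5 genes had 1 each. All 10 genes were present, and no filter on low signal removed any of the 19.

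RNA from rat adrenal tissue was hybridised to 16 expression arrays, all from rats of the mixed strain Sprague–Dawley white eye/Wistar–Kyoto. Adrenal medullary hyperplasia came from rats labelled p27Kip1 (Cdknb1) mutant, the gene whose symbol is Cdkn1b, aged 2 months, on 8 arrays. Young wild-type medulla, also at 2 months, was on 2 arrays, a pool of 2 animals and a pool of 3. Pheochromocytoma, the tumour of the adrenal medulla, came from the same mutant genotype on 4 arrays, 3 at 8 months and 1 at 9 months. Older wild-type medulla was on 2 arrays, each a pool of 2 animals, with 1 pool aged 10 months and the other made of animals of 12 and 17 months. Every wild-type array was thus a pool, which shows less than the spread between single animals, and the labels do not say how many animals each mutant array holds. The mutation is present in all cells of the mutant rats, cortex included, so the lesion and the genotype cannot be told apart. The pheochromocytomas, at 8 and 9 months, all came from younger animals than the older wild-type pools, at 10 months or more. Age and lesion therefore cannot be fully separated in that comparison.

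Growth factors bind receptor tyrosine kinases and act through RAS, RAF and MEK to phosphorylate ERK. Active ERK raises the transcription of Dusp5 and Dusp6, whose products remove the phosphates from ERK in the nucleus and the cytoplasm, and of Sprouty genes, whose products act upstream to blunt signalling from receptor to RAS. Etv1, Etv4 and Etv5 are transcribed in many tissues in response to FGF and ERK. Dusp1 is in addition an immediate early and stress-response gene that is also induced by glucocorticoids and by cyclic AMP, and its product acts on p38 and JNK as well as ERK. Chromaffin cells of the medulla carry the receptor Ret and respond to nerve growth factor and to splanchnic nerve activity, and cortical glucocorticoids reach the medulla directly.

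Promoter windows are shown first for 5 members on which the results turn: Dusp1 and Dusp5, which differed among the hyperplasia arrays, Dusp6, which differed most between the ages, and Spry2 and Etv1, which passed the test between hyperplasia and young wild type. The choice was made after their values were seen. They are shown since immediate early and ERK-responsive genes are known to carry short elements close to the start. The windows are from RefSeq on the rat assembly GRCr8 and run from 250 bases before to 50 after an annotated start, on the strand of the gene. That start is not always the outer end of the gene: the Etv1 gene begins at 61316836, before its window, which begins at 61317179. Of the 10 genes, 8 had a window, 9 windows in all because Spry2 had 2 starts. Capitals mark matches on either strand to TGACG (the core of a cyclic AMP response element, whose full palindrome is TGACGTCA), to CCGGAA (a core that ETS factors bind) or to the CArG box of serum response factor.

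Dusp1, chr10:17184603-17184902, plus strand: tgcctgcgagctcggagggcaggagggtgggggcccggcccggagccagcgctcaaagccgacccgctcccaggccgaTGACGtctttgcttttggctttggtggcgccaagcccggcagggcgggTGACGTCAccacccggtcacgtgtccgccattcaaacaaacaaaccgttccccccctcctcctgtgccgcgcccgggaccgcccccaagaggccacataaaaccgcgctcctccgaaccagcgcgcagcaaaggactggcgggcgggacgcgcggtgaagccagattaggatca
Dusp5, chr1:262543524-262543823, plus strand: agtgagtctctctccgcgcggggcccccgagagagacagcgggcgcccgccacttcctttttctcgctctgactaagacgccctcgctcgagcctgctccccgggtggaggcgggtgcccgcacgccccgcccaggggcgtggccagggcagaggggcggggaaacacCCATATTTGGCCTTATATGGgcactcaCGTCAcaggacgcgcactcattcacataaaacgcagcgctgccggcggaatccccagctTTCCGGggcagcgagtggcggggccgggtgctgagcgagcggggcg
Dusp6, chr7:35979354-35979653, plus strand: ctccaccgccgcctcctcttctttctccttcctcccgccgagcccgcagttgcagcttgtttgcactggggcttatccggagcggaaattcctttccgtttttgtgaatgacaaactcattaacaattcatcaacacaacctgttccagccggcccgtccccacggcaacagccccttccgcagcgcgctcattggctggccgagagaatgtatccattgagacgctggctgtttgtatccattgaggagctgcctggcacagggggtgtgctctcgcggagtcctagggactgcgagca
Spry2, outer start, chr15:89111877-89112176, minus strand: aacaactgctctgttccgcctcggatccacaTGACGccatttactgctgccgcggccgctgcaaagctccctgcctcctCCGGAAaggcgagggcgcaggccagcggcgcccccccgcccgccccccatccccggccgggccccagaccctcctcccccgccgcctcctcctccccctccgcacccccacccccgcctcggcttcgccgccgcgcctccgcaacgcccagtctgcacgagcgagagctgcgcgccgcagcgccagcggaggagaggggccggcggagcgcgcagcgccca
Etv1, chr6:61317179-61317478, plus strand: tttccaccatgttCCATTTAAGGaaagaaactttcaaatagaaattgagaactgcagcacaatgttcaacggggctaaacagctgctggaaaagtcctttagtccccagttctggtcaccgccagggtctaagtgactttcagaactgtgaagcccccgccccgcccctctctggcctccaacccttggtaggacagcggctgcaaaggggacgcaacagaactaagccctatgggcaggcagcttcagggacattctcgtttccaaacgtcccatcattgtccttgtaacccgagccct

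The Dusp1 window held 1 full palindrome, a motif found in 1.83% of all 33469 rat promoter windows, and 3 matches to TGACG when both strands of the palindrome are counted. Windows with at least 1 match to TGACG made up 21.2% of the total. The Dusp5 window held 2 adjoining CArG boxes, a motif present in 1.64% of windows, as well as 1 match to TGACG and 1 to CCGGAA. The outer Spry2 window held 1 match each to TGACG and CCGGAA, and the inner, not shown, held 0 matches to the 4 motifs. The Etv1 window held 1 CArG box. The Dusp6 window held 0 matches to the 4 motifs, which says only that these letters are not in it. A match to CCGGAA was found in 15% of windows, and in 3 of the members' 9. These matches describe letters in the windows and not bound sites.

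The 2 probe sets of the mutated gene behaved differently, and the first, higher on every mutant array than in its controls, passed in both comparisons. Cdkn1b 1373812_at was 11.58 to 11.86 in hyperplasia against 11.04 and 10.89 in young wild type, and 11.44, 11.6, 11.39 and 11.7 in pheochromocytoma against 10.73 and 10.45 in older wild type. Probe set 1369192_at passed in neither. It was lower on all 8 hyperplasia arrays, 5.45 to 6.81 against 6.96 and 6.84 in young wild type (difference -0.81, limma's adjusted p = 0.0676), and overlapped between pheochromocytoma (3.83, 4.4, 4.04 and 4.31) and older wild type (4.07 and 4.21). Where either lies relative to the mutation is not in the labels. A second check of the labels bears on every comparison with the young pools. Xist is transcribed from the inactive X, so it should be present in females and absent in males. Its signal went against the labelled sex on 6 of 16 arrays. These were 4 of the 8 hyperplasia arrays (replicates 1, 2, 5 and 6) and both young wild-type pools (12.14 in the pool labelled male and 3.21 in that labelled female), with 0 in pheochromocytoma and 0 in older wild type. Labelled sex was therefore left out of the fit, and results are given without those 4 hyperplasia arrays where that ends a call, but leaving out both young pools would leave no young control. The hexokinase control probe sets, which compare the 3′ with the 5′ end of a transcript, differed by 1.21 to 1.63 (log2) on hyperplasia arrays and by 1.07 and 1.18 on young wild-type arrays, against 2.16 to 3.3 in pheochromocytoma and 2.29 and 2.92 in older wild type. Age of the animals and 3′ bias of the RNA therefore move together. The mean of 12 chromaffin cell markers was 12.37 to 12.48 in hyperplasia against 12.14 and 12.29 in young wild type. It was 11.86 to 12.21 in pheochromocytoma against 11.32 and 11.82 in older wild type, so every mutant array had a higher chromaffin marker mean than its controls. The mean of 12 adrenal cortex markers was 9.88 to 10.66 in hyperplasia against 10.96 and 11.18 in young wild type, and 9.77 to 11 in pheochromocytoma against 11.33 and 11.68 in older wild type, so every mutant array had a lower cortex marker mean than its controls. In such bulk samples fewer cells of a type and less RNA per cell cannot be told apart. Since the cortex marker mean separates mutant arrays from their controls, a fit with it as a covariate estimates the group difference less precisely. A call lost in that fit therefore cannot be assigned to cortex.

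The signal of each probe set is given as a log2 value, in which 1 unit is a doubling, and values of different probe sets are not set against each other. Both Etv4 probe sets lay between 2.91 and 4.03 on all 16 arrays, below the first quartile of its array (4.71 to 4.93). Etv1 probe set 1392555_at lay below that quartile on 14 of 16 arrays, the Dusp4 probe set on 2 pheochromocytoma arrays, and Dusp1 1368147_at on 2 pheochromocytoma arrays and 1 older wild-type array. Whether these probe sets rise above background cannot be read from the deposited values.

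**Figure D1:**
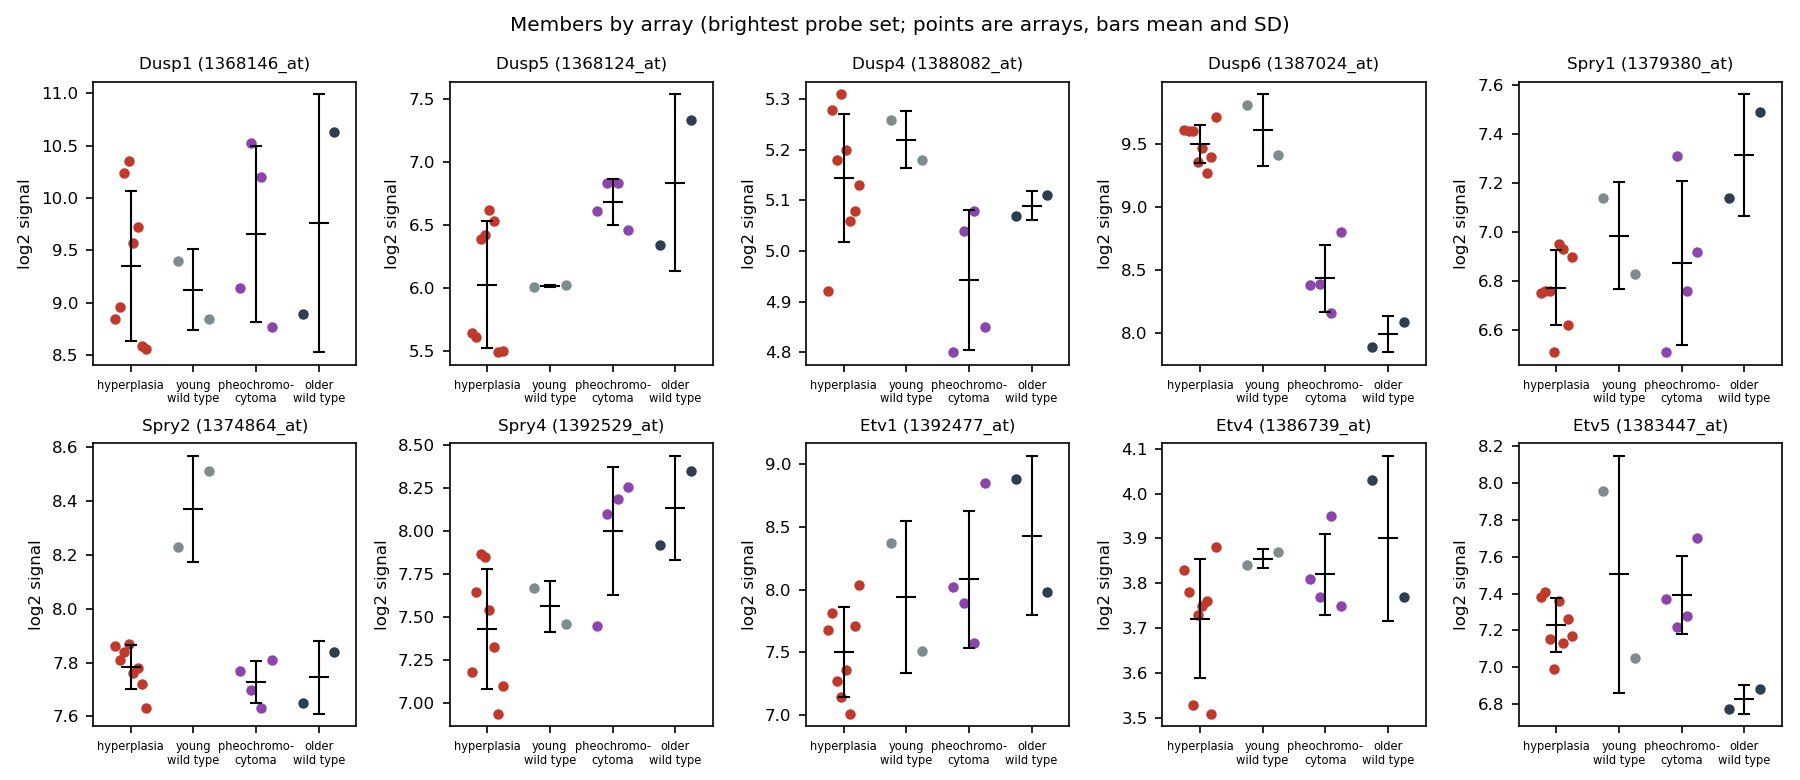
Log2 signal (vertical axis, a separate scale in each panel) of the brightest probe set of each of the 10 genes in the 4 groups. Points are arrays and bars are the mean and SD; Spry2 at 7.63 to 7.87 on all arrays other than the young wild-type pools, and the fall of Dusp6 in both older groups, stand out by eye.

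Between hyperplasia and young wild type, Spry2 and 1 of the 5 Etv1 probe sets fell, none of the 19 rose and 17 did not pass the test (limma over all probe sets, Benjamini-Hochberg adjusted p under 0.05). Across all probe sets 7.40% passed in this comparison, 4.32% as higher and 3.08% as lower. The differences of 15 of the 19 were below 0, with a median of -0.22 against -0.02 over all probe sets. The groups did not overlap, with hyperplasia lower, in 2 of the 19, and 9.41% of all probe sets separated that way.

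Spry2, an inhibitor of RAS activation downstream of FGF and other receptors, had a signal of 7.63 at the lowest, 7.8 at the median and 7.87 at the highest in hyperplasia, against 8.23 and 8.51 in the young wild-type pools. All 8 hyperplasia arrays lay below both pools, and within a range narrower than the distance between the pools. The difference was -0.58 ± 0.10 (SE), 1.5-fold lower in hyperplasia, with limma's adjusted p = 0.00211. Without the 4 hyperplasia arrays whose Xist goes against the label it was -0.60 (adjusted p = 0.0266). The call depended on the second young pool, without which the difference was -0.44 (adjusted p = 0.0836), while without the first it was -0.72 and still passed. Over 22 alternative settings the adjusted p ran from 0.00149 to 0.0836 and passed in 20.

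Etv1 encodes an ETS factor that FGF and KIT signalling keep active in several tissues. Its probe set 1382593_at had 6.49, 6.82 and 6.92 as lowest, median and highest value in hyperplasia, against 7.62 and 7.3 in young wild type, so that the groups did not overlap. The difference was -0.72 ± 0.19 (SE), with limma's adjusted p = 0.0296. The 4 other Etv1 probe sets did not pass, with differences from -0.37 to -0.53. The call was lost without the 4 mismatched hyperplasia arrays (-0.61, adjusted p = 0.169), when the mean of the cortex markers was a covariate (-0.94, adjusted p = 0.0682) and without either young pool, and it passed in 17 of 22 alternatives with adjusted p between 0.00873 and 0.261.

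The phosphatases did not pass in this comparison. Dusp6, the cytoplasmic ERK phosphatase, was measured by probe set 1387024_at at 9.27 to 9.71 with a median of 9.53 in hyperplasia, against 9.81 and 9.41 in young wild type. Its difference was -0.11, with a 95% interval of -0.43 to 0.21, and the intervals of its other 2 probe sets also held 0. Dusp5, the nuclear ERK phosphatase, ranged from 5.49 to 6.62 in hyperplasia, against 6.01 and 6.02 in young wild type. Its difference of 0.01 had an interval of -0.65 to 0.67, so the 2 pools leave room for a change of that size in either direction. Dusp1, the broad stress-induced phosphatase, differed by 0.23 on 1368146_at with an interval of -0.92 to 1.38. Dusp4, a nuclear phosphatase close to Dusp1, differed by -0.08.

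Of the remaining members, Spry1 differed by -0.22 (95% interval -0.58 to 0.14) and Spry4 by -0.13 (-0.65 to 0.39). The dim Etv4 probe sets, 1386739_at and 1380168_at, differed by -0.13 and 0.11. The brighter Etv5 probe set, 1383447_at, had 6.99, 7.22 and 7.41 as lowest, median and highest value in hyperplasia, against 7.96 and 7.05 in young wild type. The young pools thus lay on both sides of all but 1 hyperplasia array, and the difference of -0.27 ± 0.18 (SE) did not pass.

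**Figure D2:**
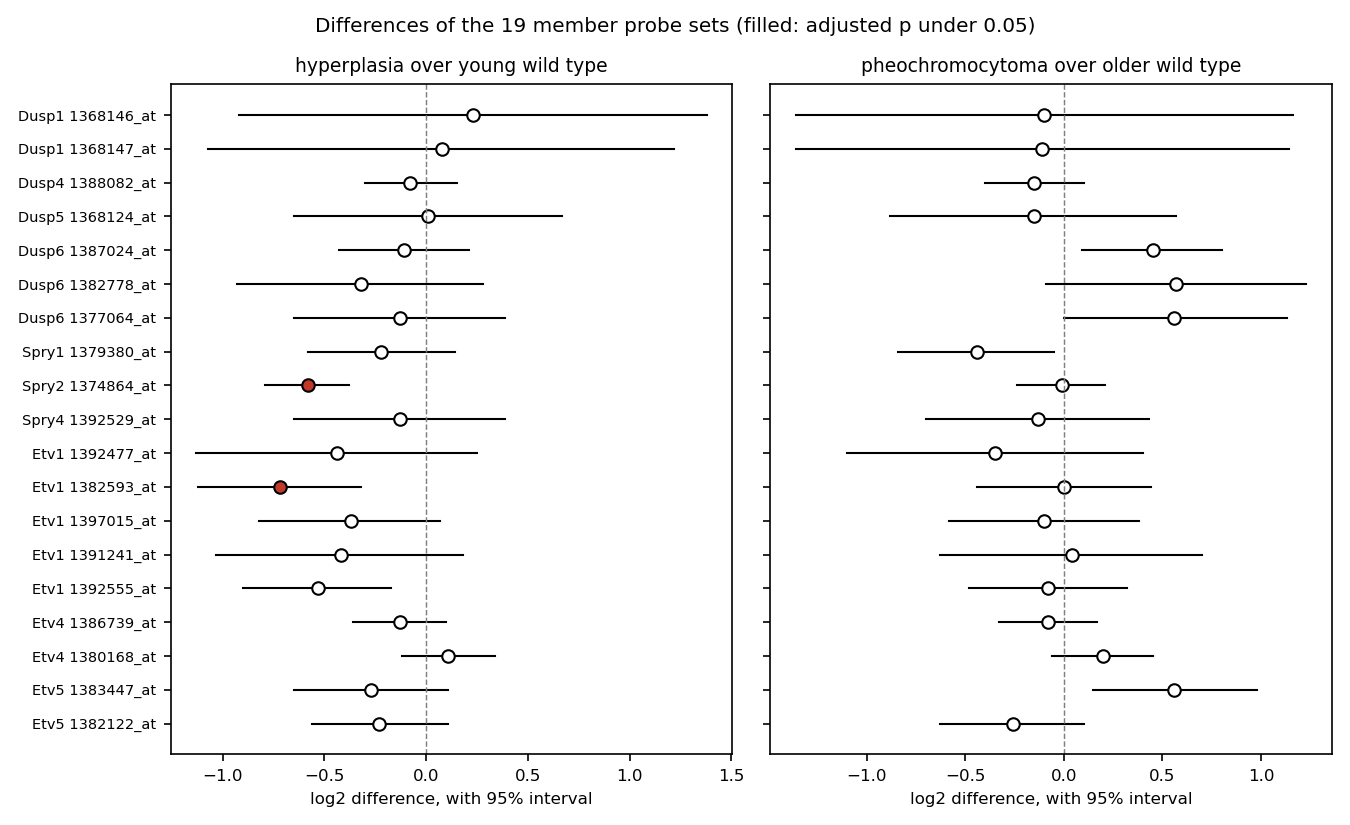
Log2 difference (horizontal axis) with its 95% interval for each of the 19 probe sets (rows), hyperplasia over young wild type on the left and pheochromocytoma over older wild type on the right. Filled points passed at an adjusted p under 0.05: Spry2 at -0.58 and Etv1 1382593_at at -0.72 on the left, and none on the right.

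Between pheochromocytoma and older wild type, 0 of the 19 probe sets rose and 0 fell, although 14.3% of all probe sets passed, 8.31% as higher and 5.95% as lower (2579 and 1846, or 1938 and 2416 under median centring). At an unadjusted p under 0.05 there were 3 of 19, against 29.6% of all probe sets. The median difference of the members was -0.08, against -0.01 over all.

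All 3 Dusp6 probe sets had a higher mean in pheochromocytoma than in older wild type, by 0.45 to 0.57, and none passed. The tumours came from younger animals than both older pools, and the part of age in these differences was not tested. Probe set 1387024_at had 8.38, 8.39, 8.16 and 8.8 in the pheochromocytomas, against 7.89 and 8.09 in older wild type. The groups did not overlap, as for 20.0% of all probe sets with pheochromocytoma higher, and the difference of 0.45 ± 0.17 (SE) had limma's adjusted p = 0.0848. Probe set 1377064_at had 8.39, 8.25, 7.95 and 9.08 in pheochromocytoma, against 7.68 and 8.03 in older wild type, a difference of 0.56 ± 0.27 (SE) with adjusted p = 0.172. The tumour of 9 months, replicate 4, was the highest of the 4 on all 3 probe sets, as it was on every Etv1 and Etv5 probe set. That tumour was also the only one labelled male, the only one without Xist and the one with the lowest cortex marker mean (9.77). With the Xist level as a covariate 1377064_at passed (0.70, adjusted p = 0.0281), the only 1 of 18 alternatives in which it did.

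Etv5, an ETS factor that acts downstream of Ret and FGF receptors in kidney and testis of mice, had on 1383447_at 7.37, 7.22, 7.28 and 7.7 in pheochromocytoma, against 6.77 and 6.88 in older wild type. All 4 tumours lay above both pools, and the difference was 0.56 ± 0.20 (SE), 1.48-fold, with limma's adjusted p = 0.0676. It passed in 1 of 18 alternatives, with labelled sex as a covariate (0.62, adjusted p = 0.0375), over a range of 0.0375 to 0.624. The dimmer probe set of Etv5, 1382122_at, differed the other way, by -0.26 ± 0.17 (SE), and did not pass.

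Spry1, which restrains Ret signalling in the developing kidney of mice, had 6.51, 7.31, 6.76 and 6.92 in pheochromocytoma, against 7.14 and 7.49 in older wild type. Replicate 2 lay between the pools, and the difference was -0.44 ± 0.19 (SE) with limma's adjusted p = 0.124. Without replicate 2 it was -0.59 (adjusted p = 0.0333), and over 18 alternatives the adjusted p ran from 0.0333 to 0.64. Spry2 differed by -0.01, with a 95% interval of -0.24 to 0.21. Spry4, a Sprouty protein commonly used as an ERK readout, differed by -0.13 (-0.70 to 0.43). Dusp1 and Dusp5 differed by -0.10 and -0.15 on their brightest probe sets, with intervals of -1.36 to 1.16 and -0.88 to 0.57. Etv1 1382593_at, which was called in hyperplasia, differed by 0 here. The other Etv1 probe sets differed by -0.35 (1392477_at), -0.10 (1397015_at), 0.04 (1391241_at) and -0.08 (1392555_at). Dusp4 differed by -0.15, Etv4 1386739_at by -0.08 and Etv4 1380168_at by 0.20.

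The difference between the effects in pheochromocytoma and in hyperplasia was tested as an interaction. It passed for 0 of 19 members and for 0.0258% of all probe sets, 8 in number, with 5 of 19 members and 11.1% of all at an unadjusted p under 0.05. Spry2 had the largest ratio to its error, 0.57 ± 0.14 (SE), with an unadjusted p of 0.00113 and an adjusted p of 0.188 from limma. The brighter Etv5 probe set followed at 0.83 ± 0.27 (SE) and adjusted p = 0.272.

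When the lesions were compared with each other, 4 of 19 probe sets rose in pheochromocytoma, 3 fell and 12 did not pass, while 40.7% of all probe sets passed, 20.4% as higher and 20.3% as lower. Between the wild-type groups, older against young, 0 rose and 5 fell, with 23.7% of all passing and 13.3% passing as lower. Comparisons that share a group are given side by side and not as separate evidence: pheochromocytoma over hyperplasia and older over young wild type share no array, but both set 2-month tissue against tissue of 8 months or more, with the 3′ bias given above.

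Dusp6 changed most with age set. Its probe set 1382778_at had 7.33, 7.09, 6.47 and 8.08 in pheochromocytoma, against 9.07, 9.49 and 9.72 as lowest, median and highest in hyperplasia. It had 6.31 and 7.03 in older wild type, against 9.89 and 9.68 in young wild type. The older tissue lay below the young in mutant and wild-type rats with no overlap, as for 14.0% of all probe sets between the lesions and 31.9% between the wild-type groups. The differences were -2.22 ± 0.22 (SE) between the lesions (4.65-fold lower, limma's adjusted p = 8.7e-07) and -3.11 ± 0.36 between the wild-type groups (8.66-fold lower, adjusted p = 1.99e-05). Probe set 1387024_at fell by 1.07 between the lesions (2.1-fold) and by 1.62 between the wild-type groups (3.08-fold).

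The remaining Dusp6 probe set did not follow. On 1377064_at the lesions differed by 0.14 ± 0.19 (SE, adjusted p = 0.601) and the wild-type groups by -0.56 ± 0.31 (adjusted p = 0.208). The Dusp1 probe sets parted in the same manner. Between the lesions 1368147_at fell by 1.55 ± 0.42 (SE), 2.93-fold, with limma's adjusted p = 0.00702, and 1368146_at differed by 0.30 ± 0.42 with adjusted p = 0.597. The place of each probe set along its transcript was not used here, and the part of the 3′ bias in these differences was not tested.

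**Figure D3:**
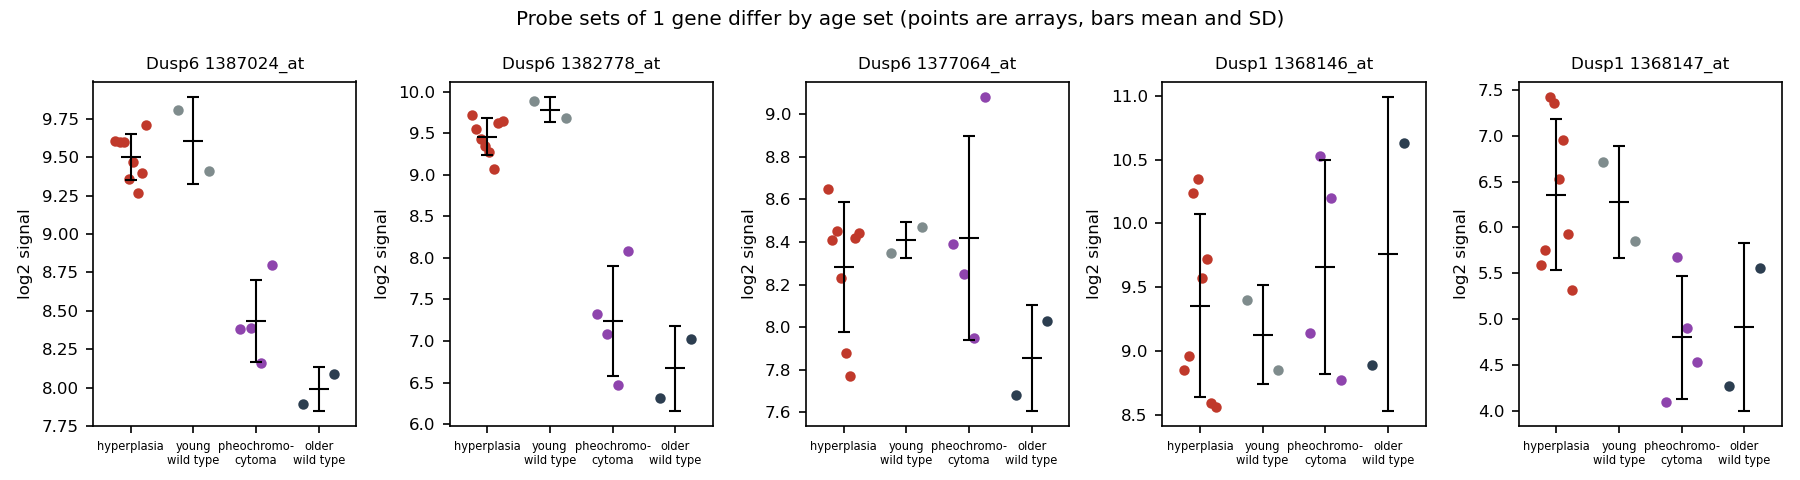
Log2 signal (vertical axis, a separate scale in each panel) of the 3 Dusp6 and 2 Dusp1 probe sets in the 4 groups, with points for arrays and bars for the mean and SD. Dusp6 1382778_at lies at 6.47 to 8.08 in pheochromocytoma and 9.07 to 9.72 in hyperplasia, while Dusp6 1377064_at overlaps between these groups.

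Among members with 1 probe set, Dusp5 rose in pheochromocytoma over hyperplasia by 0.66 ± 0.24 (SE), with 6.61, 6.83, 6.83 and 6.46 in pheochromocytoma and 5.49, 6.01 and 6.62 as lowest, median and highest in hyperplasia. The groups overlapped, limma's adjusted p was 0.0391, and the call held in 16 of 24 alternatives (adjusted p 0.0168 to 0.0998). Spry4 had 7.45, 8.1, 8.19 and 8.26 in pheochromocytoma, against 6.94 to 7.87 with a median of 7.43 in hyperplasia. Its rise of 0.57 ± 0.19 (SE, adjusted p = 0.0236) held in 19 of 24, and was lost without the 4 mismatched arrays (0.56, adjusted p = 0.0947). Among the Etv1 probe sets, 1382593_at rose by 0.54 and 1397015_at by 0.64, with adjusted p of 0.00771 and 0.00476 from limma. The others did not pass: 1392477_at, the brightest, differed by 0.58, 1391241_at by 0.39 and 1392555_at by -0.19. The groups overlapped on every Etv1 probe set. The 1382593_at call was lost without the mismatched arrays (0.42, adjusted p = 0.0853).

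Spry2 fell in older against young wild type by 0.63 ± 0.12 (SE), with 7.65 and 7.84 in older wild type and 8.23 and 8.51 in young wild type (limma's adjusted p = 0.00181). Between the lesions it differed by -0.06, with a 95% interval of -0.21 to 0.10. The 14 arrays other than the young pools thus all lay between 7.63 and 7.87, and the calls in hyperplasia and in older wild type rest on the same 2 young pools, both of which have an Xist level against their label. Etv5 1383447_at fell by 0.67 (adjusted p = 0.0425) and Etv1 1392555_at by 0.64 (adjusted p = 0.0437) in older against young wild type, but the first passed in 5 of 15 alternatives (adjusted p 0.00214 to 0.512) and the second in 6 of 14 (0.0159 to 0.381). The highest p came without young pool 1, where the differences were -0.22 and -0.33. The other Etv5 probe set, 1382122_at, differed by 0.12 and did not pass. Etv1 differed by 0.49 on 1392477_at, 0.36 on 1397015_at, -0.07 on 1391241_at and -0.18 on 1382593_at, none of which passed. Etv1 1392555_at lay below the first quartile on most arrays.

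Within the 8 hyperplasia arrays, Dusp1 and Dusp5 formed separate levels that the genotype labels do not name. The 4 arrays with Xist (replicates 3, 4, 5 and 6) had Dusp1 1368146_at at 9.57 to 10.35, against 8.56 to 8.96 on the 4 arrays without. Dusp1 1368147_at ranged over 6.53 to 7.42 with Xist, against 5.32 to 5.93 without. Dusp5 had 6.39 to 6.62 with Xist and 5.49 to 5.64 without, a difference of means of 0.93. These 3 of 19 probe sets separated as higher with Xist, as did 7.48% of all probe sets. Etv1 1392477_at (7.01 to 7.36 with Xist, 7.68 to 8.04 without) and Dusp6 1382778_at (9.07 to 9.43 with, 9.55 to 9.72 without) separated as lower, as did 8.38% of all. The split was defined from the arrays, so these values are a description with no test.

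The mean of 27 immediate early genes, transcribed within minutes of a stimulus, moved with Dusp1 and Dusp5. In hyperplasia it was 8.51 to 8.70 where Xist was present and 7.91 to 8.09 where it was absent, and 8 of the 27 genes separated as higher with Xist and 1 as lower. Fos, for instance, was 11.03, 10.96, 8.74 and 8.77 on replicates 3 to 6, against 9.06, 8.65, 7.09 and 7.67 on replicates 1, 2, 7 and 8, which overlap. The nuclear receptor gene Nr4a1 did not overlap, with 10.66, 10.91, 10.4 and 10.62 on the arrays with Xist, against 7.79, 8, 7.03 and 7.62 on those without.

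In the other groups the 2 measures and Dusp1 did not all move together. In the young pools Dusp1 was 9.4 with Xist and 8.85 without on 1368146_at, and 6.71 and 5.85 on 1368147_at, at immediate early means of 8.33 and 8.25. Pheochromocytomas 2 and 3 had an immediate early mean of 9.01 and 9.26 and Dusp1 1368146_at at 10.53 and 10.2, and pheochromocytomas 1 and 4 had means of 7.94 and 7.85 and Dusp1 at 9.14 and 8.77. Xist was present in pheochromocytomas 1, 2 and 3 and absent in 4, which had the lowest Dusp1 1368146_at and the lowest Dusp5 (6.46) of the 4. The second older wild-type pool, without Xist, had a mean of 10.02 and Dusp1 at 10.63, against 8.19 and 8.89 in the first pool, which had Xist. Dusp5 was 7.33 in that second pool and 6.34 in the first. Since the arrays fall into separate levels, no correlation over all 16 is given. The part of either measure in the levels of Dusp1 and Dusp5 was not tested.

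**Figure D4:**
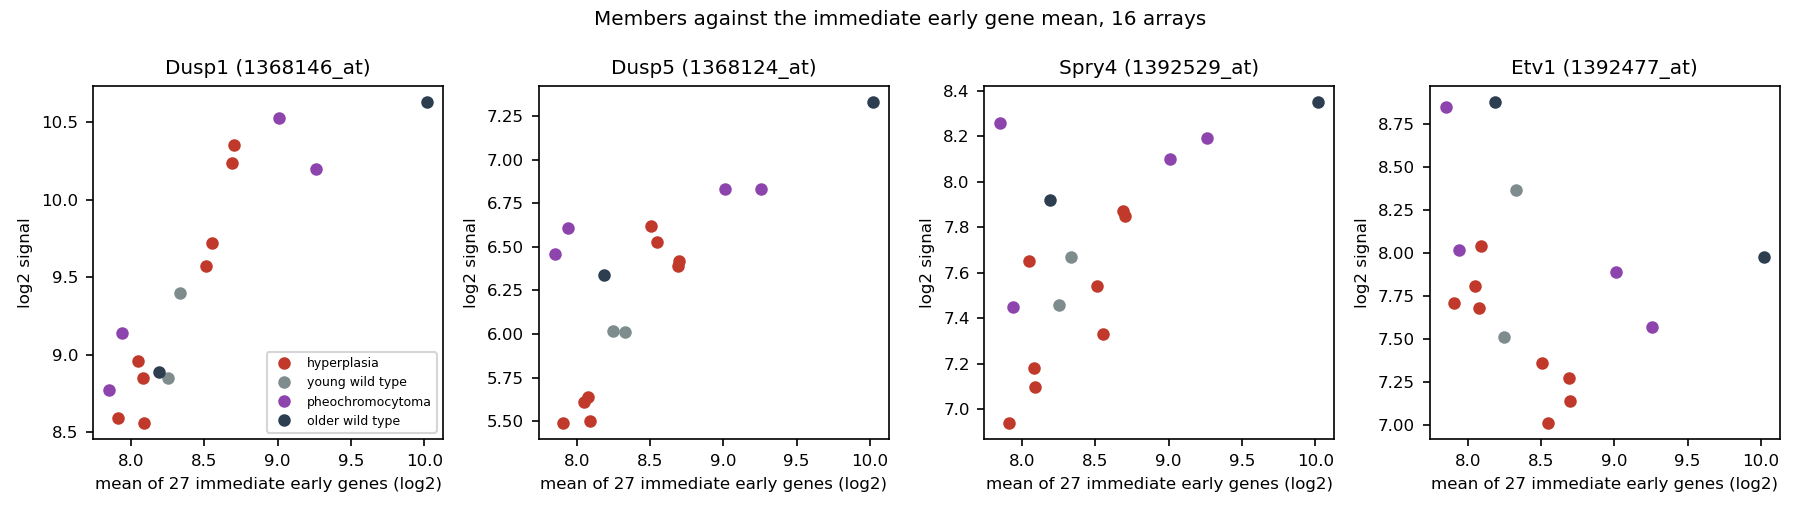
Log2 signal of Dusp1, Dusp5, Spry4 and Etv1 (vertical axes, brightest probe set, separate scales) against the mean of 27 immediate early genes (horizontal axis, log2) on the 16 arrays, coloured by group. Dusp1 is above 9.5 on each array whose mean is 8.51 or more, while Etv1 is lower on the arrays with the higher mean within hyperplasia (7.01 to 7.36, against 7.68 to 8.04 on the others).

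The 8 lists of other genes place the members in their pathway, each gene by its brightest probe set. Over all 14217 genes, 8.89% passed in hyperplasia over young wild type and 16.8% in pheochromocytoma over older wild type, with medians of -0.01 and 0.01.

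Upstream of the members, 23 receptor tyrosine kinases were measured. In hyperplasia 1 rose and 3 fell against young wild type. Fgfr4 was 2.02-fold higher (6.74 in hyperplasia and 5.73 in young wild type, limma's adjusted p = 0.00317). Egfr was 2.61-fold lower, Fgfr2 2.33-fold and Pdgfra 1.74-fold lower. In pheochromocytoma 5 rose and 1 fell against older wild type. Ret, the receptor for GDNF family ligands, was 2.28-fold higher (8.06 in pheochromocytoma and 6.87 in older wild type, adjusted p = 0.0275). Ltk was 3.89-fold and Fgfr4 again 2.02-fold higher, and Fgfr2 was 4.45-fold lower. Of 26 growth factor ligands, 2 rose and 0 fell in hyperplasia, and 1 rose and 4 fell in pheochromocytoma. Fgf1, a ligand of all FGF receptors, rose in both (2.55-fold over young wild type and 2.4-fold over older wild type). Hgf was 1.59-fold higher in hyperplasia. In pheochromocytoma Tgfa was 2.69-fold and Igf2 1.98-fold lower than in older wild type. Bdnf was 3.02-fold lower there, with groups that overlapped. When the mean of the cortex markers was a covariate, 0 receptors passed in either comparison and, of the ligands, 0 passed in hyperplasia and 1 fell in pheochromocytoma. Without the 4 mismatched arrays 1 receptor rose, 1 fell and 0 ligands passed in hyperplasia.

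Of 22 genes of the RAS to ERK cascade, 4 rose and 1 fell in hyperplasia, with a median difference of 0.07. In pheochromocytoma 9 rose and 1 fell, with a median of 0.33, and 8 rose and 1 fell under median centring. In pheochromocytoma the FGF receptor adaptor Frs3 was 2.13-fold, Shoc2 1.67-fold and Nras 1.53-fold higher than in older wild type, and Mras was 1.77-fold lower. In hyperplasia Rapgef2 was 1.52-fold, the exchange factor gene Sos2 1.44-fold, Frs3 1.39-fold and the adaptor Grb2 1.38-fold higher than in young wild type. When the mean of the cortex markers was a covariate, 1 rose and 0 fell in hyperplasia and 0 passed in pheochromocytoma. The median differences in that fit were 0.06 and 0.24. Without the 4 mismatched arrays, 1 rose and 0 fell in hyperplasia.

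Of 25 other negative regulators, 1 rose and 1 fell in hyperplasia, and 5 rose and 5 fell in pheochromocytoma. Dusp14, a small MAPK phosphatase outside the member list, was 4.16-fold lower in pheochromocytoma (6.93, against 8.99 in older wild type, limma's adjusted p = 7e-04). Rasal1 was 1.97-fold, Dusp10 1.89-fold and Errfi1, a feedback inhibitor of Egfr, 1.71-fold lower there. In hyperplasia Rasal2 was 1.52-fold higher and Spry3 1.41-fold lower than in young wild type. Among the 14 measured genes of the complete MAPK phosphatase and Sprouty families, which include 7 of the members, 0 rose and 2 fell in each comparison: Spry2 and Spry3 in hyperplasia, and Dusp10 and Spry3 in pheochromocytoma. Spry3 was dim, 3.84 in hyperplasia and 4.34 in young wild type. With the cortex covariate, 0 of the other negative regulators passed in either comparison.

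Downstream, 22 other ERK-responsive genes gave 1 rise and 0 falls in hyperplasia, and 1 rise and 3 falls in pheochromocytoma. Myc rose in both, 2.07-fold in hyperplasia (8.84, against 7.79 in young wild type, limma's adjusted p = 0.00664) and 1.66-fold in pheochromocytoma (9.28, against 8.55 in older wild type, adjusted p = 0.0441), where under median centring or quantile normalization 0 of the 22 rose. Ier3, Mcl1 and Fosl1 fell in pheochromocytoma by 1.00, 0.62 and 0.49. Of the 27 immediate early genes 0 rose and 1 fell in hyperplasia (Crem, 2.3-fold lower). In pheochromocytoma 0 rose and 4 fell, with Crem 4.52-fold, Maff 4.14-fold and Jun 2.37-fold lower. Of the 4, Crem, Maff and Btg1 were lower on all 4 pheochromocytomas than in both older pools, and Jun overlapped. The older pools differed in the mean of the list, 8.19 and 10.02, and the part of that gap in these calls was not tested. Of 14 glucocorticoid-induced genes, 0 rose and 1 fell in hyperplasia, and 0 rose and 3 fell in pheochromocytoma. They were Sult1a1 (3.09-fold and 2.95-fold lower) and, in pheochromocytoma, Ddit4 (1.87-fold lower) and Nfkbia (1.37-fold lower). With the cortex covariate, 0 genes of these 3 lists passed in either comparison, and without the 4 mismatched arrays 0 passed in hyperplasia.

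The genes whose signal ran most like that of Spry2 and Etv1, the genes with a call in hyperplasia, were found by Pearson correlation over the 16 arrays. Spry2 and Etv1 were taken by their brightest probe set, and every other gene by the probe set that correlated best. For Spry2 they were Peg10 (0.931), Plaur (0.889) and Prss37 (0.886). For Etv1 that is 1392477_at, which did not itself pass in any comparison, and they were Nr2f2 (0.903), Arfgap1 (0.893) and Foxe1 (0.874). The 16 arrays share group and, within hyperplasia, the 2 Xist levels, so these values describe the arrays. Spry2 stood apart only in the 2 young pools, so its correlations rest largely on those arrays, whose Xist goes against their label.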

How the data were processed

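The authors deposited 1 log2 value per probe set and array, made with RMA per the submitters' processing notes (version not given). RMA corrects background, equalises the distributions and summarises probes, and which arrays were processed together is unknown from the sources used here. The labels' protocols name Trizol and column extraction with DNase and 1 round of biotin amplification.

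Of 31099 probe sets, 57 controls were left out and 31042 tested. The log2 values of all 16 arrays entered 1 linear model per probe set (limma 3.58.1, R 4.3.3) with 4 group levels and no covariate (12 residual degrees of freedom, median prior 3.98), two-sided, and adjusted by Benjamini-Hochberg over all 31042 probe sets. An adjusted p under 0.05 passed. Labels call the mutant arrays biological replicates. The number of arrays limits precision. The fit was also run on simulated data with independent noise and without the Xist, cortex or 3′ bias differences given above, so that run does not bear on them. Deposited arrays of 1 group correlated at 0.981 to 0.996 and none were identical.

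Replicate numbers are shared by groups, but same-numbered arrays did not deviate together (14 pairs, correlation -0.179 to 0.212, 2 over 0.1), so they were not taken as pairs. Named were all member probe sets. From each pathway list came up to 4 genes that passed with the largest change in each of the first 2 comparisons. Where none passed, the gene with the smallest p was taken. Also named were the 3 genes most like the brightest probe set of each gene with a call in the first 2 comparisons. Cdkn1b, Xist, Fos and Nr4a1 were named outside these rules. Symbols came from the platform annotation (20826 probe sets with 1 symbol, 436 with several, 9780 with none). The members and the 16 lists, 8 of pathways and 8 of cell type markers, were chosen with earlier results of these data known. Alternatives were covariates, scalings, weights, a dim filter, a replicate block and leaving out arrays. The list counts under other scalings were added after seeing the data.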

Additional observations from a re-analysis of the deposited data

Results flagged for a closer look

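Of 38 sets of values, 19 probe sets in each of the 2 groups with 4 or more arrays, 2 had a single array far from the rest, where chance gives about 1 in 20. Etv1 1391241_at was 4.37 in hyperplasia replicate 2, the lowest of 8, against 5.08 to 5.53 on the other 7. Etv1 1392555_at was 4.86 in hyperplasia replicate 8, the highest of 8, against 4.14 to 4.41 on the others. Without replicate 8 the difference of 1392555_at between hyperplasia and young wild type was -0.61 (limma's adjusted p = 0.0143), against -0.53 (adjusted p = 0.0734) with it, over an adjusted p of 0.0143 to 0.642 in 21 alternatives. The first quartile of the hyperplasia arrays was 4.71 to 4.84.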

How the results depend on the processing

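Of 1994 recomputed differences of single members, 1833 kept direction and side of the threshold, 40 lost a call, 22 gained 1, 99 uncalled values changed sign and 0 called values reversed. Most of these values belong to probe sets without a call in the main fit, so the 1833 do not measure how stable the calls were. The lost calls were 7 in hyperplasia over young wild type, 14 in pheochromocytoma over hyperplasia and 19 in older over young wild type. The probe sets passing in hyperplasia over young wild type, 2296, became 689 without the 4 mismatched arrays, 317 with the cortex covariate, 556 with the replicate block, and 564 (without young pool 2) to 2687 leaving out 1 array. In pheochromocytoma over older wild type 4425 became 68 with the cortex covariate, 1915 with only the groups compared, 1593 with the replicate block, and 596 (without older pool 2) to 4781 leaving out 1. The share called higher turned with median centring, 1938 higher and 2416 lower, against 2579 and 1846. The 8 of the effect difference became 1 without the mismatched arrays, 2 with the cortex or the immediate early covariate, 14 with quantile normalization, 3 with median centring, 1 with array weights, 0 with the block, and 0 to 649 (without older pool 1). Older over young wild type, 7366, became 3770 with only the groups compared and 4500 to 5763 leaving out 1, and pheochromocytoma over hyperplasia, 12631, ran from 10908 to 12744 leaving out 1 and from 8997 (replicate block) to 14545 (array weights) over the other settings. The 2 called members in hyperplasia became 1 without the mismatched arrays, 1 with the cortex covariate, 0 with the block and 0 to 3 leaving out 1. The 0 in pheochromocytoma became 1 with labelled sex or Xist and 0 to 1 leaving out 1. The 5 in older over young wild type became 3 with the cortex covariate, 2 with only the groups compared, 3 with median centring, 3 with the block and 3 to 5. The replicate block, by numbers that pair nothing known, gave Spry2 -0.52 (limma's adjusted p = 0.0812). Some of these settings hold fewer arrays, though leaving out 1 array also raised counts, and the cause of the changes was not tested. Signal over background is not given, which limits Etv4, Dusp4 and Etv1 1392555_at.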
